A study of Rattus rattus with 8 samples.

Results

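Inflammatory cytokines, chemokines and the enzyme that supplies inflammatory prostaglandins were followed in rat hair follicles, rat by rat. The set holds 10 genes chosen by accession, namely Il1a (NM_017019), Il1b (NM_031512), Il18 (NM_019165), Il1rn (NM_022194), Tnf (NM_012675), Il6 (NM_012589), Ccl2 (NM_031530), Cxcl1 (NM_030845), Ccl20 (NM_019233) and Ptgs2 (NM_017232). All 10 had a probe, and together they had 12 of the 30367 different probes and 10 of the 26997 distinct accessions on the array. Il1a and Ccl20 had 2 probes each, and the brighter one stood for the gene.

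The study asked which transcripts of the follicle respond to a simulated blast to the head. Whisker follicles came from male adult Sprague-Dawley rats, of which 3 were sham controls at a pressure of 0 kPa (C1, C2 and C3) and 5 were exposed to shock waves of 145 kPa (M2 and M3), 175 kPa (H1) or 200 kPa (XH1 and XH3). By the study's methods, exposure was a single head-only pulse under isoflurane, follicles were pulled after 1 or 7 days, and several follicles of a rat were pooled for RNA. The labels do not give which rat was kept for which time, so time could not enter a comparison, and the 175 kPa group is 1 animal.

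Each rat had 1 array, read in a single colour, and all 8 arrays lay on 1 slide. Row 1 of the slide held C1, C2, M2 and H1, and row 2 held C3, M3, XH1 and XH3. Before normalization C1 was the brightest array, with a median intensity of 280.5 over its spots that were not controls, and C2 the dimmest, with 90.88, while M3, with a median of 93.34, had the smallest share of spots well above background, 65.9% against 73.0% in C1. Levels below are log2 intensities after quantile normalization, each on the scale of its own probe. Levels of different genes are therefore not compared, except to choose which genes of the other lists are named and to sum the markers of a cell type.

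Interleukin-1 alpha and beta, interleukin-18 and tumour necrosis factor are the early alarm signals of injured or infected epithelium, and keratinocytes, the epithelial cells that make up most of the hair follicle, are known to store interleukin-1 alpha and to make interleukin-18. These signals act through the transcription factor NF-kB in neighbouring cells, which then release interleukin-6 and chemokines that draw in monocytes, neutrophils and lymphocytes. The interleukin-1 receptor antagonist, encoded by Il1rn, occupies the same receptor without activating it and so limits the response.

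Over all 8 rats together the set split into 3 classes by detection. Il1a, Il18, Il1rn and Tnf were well above background in all 8 rats, as were 57.5% of all probes. Ccl2 was so in 7 rats, Ccl20 in 2 and Cxcl1 in 1. Il1b, Il6 and Ptgs2 were not well above background in any rat, as were 21.9% of all probes. The lowest log2 intensity at which a probe was well above background lay between 2.87 and 3.65, depending on the array.

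**Figure D1:**
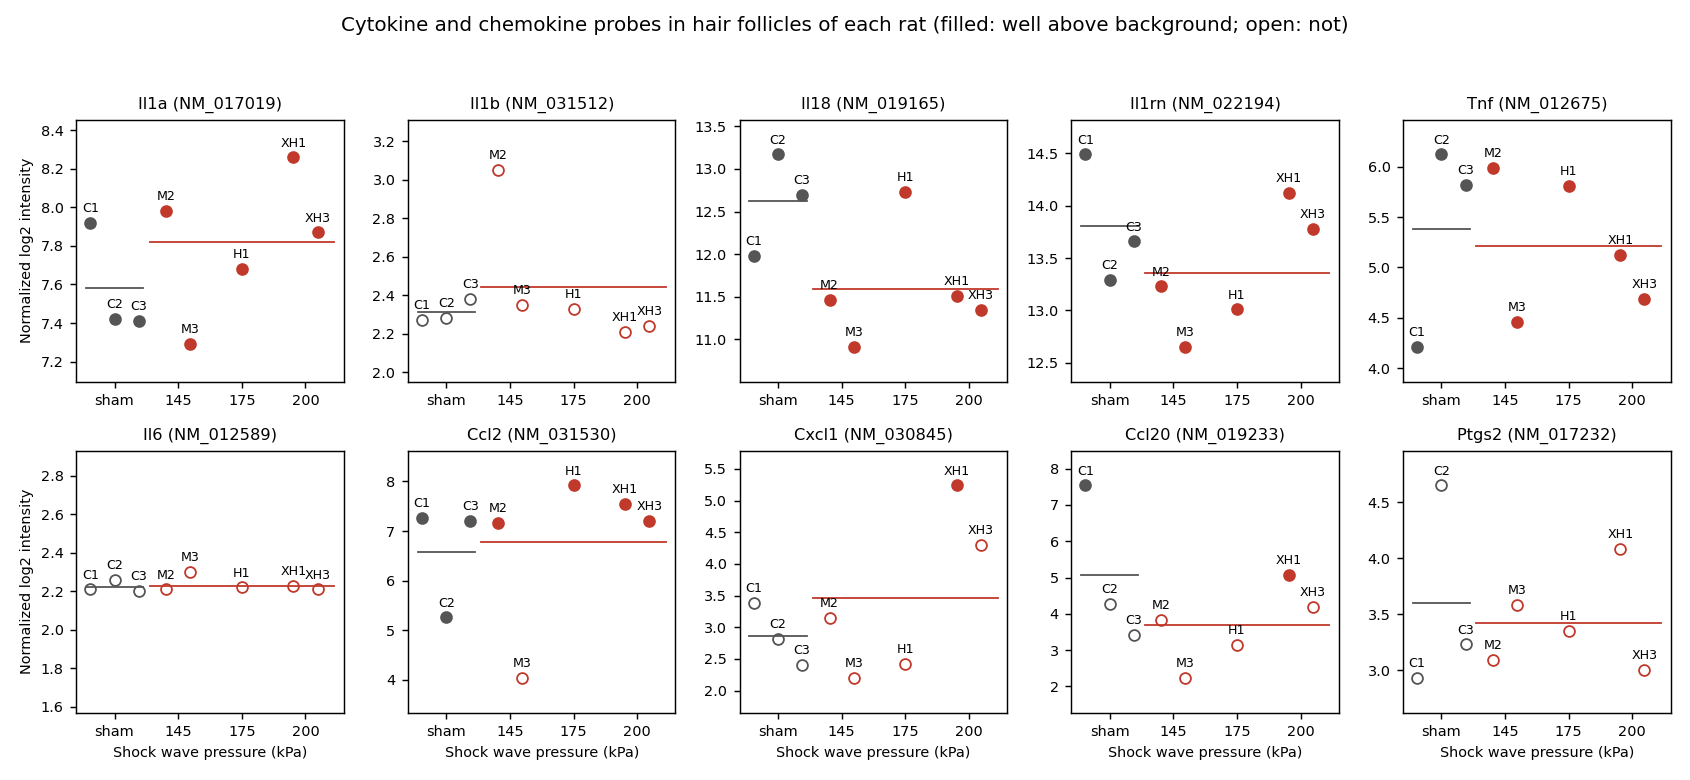
Normalized log2 intensity (vertical axis, its own range for each probe) of the 10 genes in each of the 8 rats, by shock wave pressure in kPa (horizontal axis), with sham rats in grey and blast rats in red. Filled points are well above background and open points are not, horizontal lines are the means of the 3 sham and of the 5 blast rats, and in 0 of the 10 genes do all blast rats lie on one side of all sham rats.

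The 5 blast rats, as 1 group over all pressures, were set against the 3 sham rats. Of the 4 genes well above background in all rats, Il1a was higher and Il18, Il1rn and Tnf were lower after blast, Tnf in a direction that turned with single rats. The median difference over all 30366 probes tested was 0.00 on the log2 scale. With limma and Benjamini-Hochberg adjustment over all probes, 0 of the 10 genes had an adjusted p under 0.05, as had 0% of all probes, and the lowest adjusted p among the 10 was 0.9999. At an unadjusted limma p under 0.05, 1 gene was lower (Il18) and 0 were higher, beside 1.62% of all probes lower and 1.18% higher. That balance over all probes turned without H1, with 952 higher and 697 lower, against 358 and 492 with every rat kept. With array quality weights 829 were higher and 842 lower. All blast rats lay above all sham rats in 0 of the 10 genes and below them in 0, beside 0.960% and 1.04% of the 30217 probes measured on all 8 arrays. A p that misses the threshold does not show that levels were equal.

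Il18 encodes the interleukin-1 family cytokine that, once cleaved by caspase-1, drives interferon-gamma production by lymphocytes. Its log2 intensity was 11.98, 13.17 and 12.70 in C1, C2 and C3, and 11.46, 10.91, 12.73, 11.51 and 11.35 in M2, M3, H1, XH1 and XH3. In 4 of the 5 blast rats the level lay below that of every sham rat, and H1 lay among the sham rats. Sham rats had a mean of 12.62 ± 0.60 (SD, n = 3) and blast rats one of 11.59 ± 0.68 (SD, n = 5), a log2 difference of -1.03 (standard error 0.44, 95% interval -2.05 to -0.00), or 2.04-fold lower. The unadjusted limma p of 0.0496 lay at the edge of the threshold and was 0.0503 with outlier spots kept. A two-sided exact permutation test, in which 56 divisions of the rats are possible, gave p = 0.107, and the limma p adjusted over all probes was 0.9999. Leaving out each rat in turn gave differences between -1.34 (without C1) and -0.75 (without C2). The difference was -0.48 within row 1, -1.44 within row 2 and -0.89 with the row as a block, where the unadjusted p was 0.0877. In pooled follicles, fewer cells that make a transcript and less of it per cell cannot be told apart.

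Il1a encodes interleukin-1 alpha, active without cleavage and released when epithelial cells are damaged. Its log2 intensity was 7.92, 7.42 and 7.41 in C1, C2 and C3, and 7.98, 7.29, 7.68, 8.26 and 7.87 in M2, M3, H1, XH1 and XH3. M2 and XH1 lay above every sham rat and M3 below all of them, so the groups overlapped. The means were 7.58 ± 0.29 (SD, n = 3) and 7.82 ± 0.36 (SD, n = 5), a log2 difference of 0.23 (standard error 0.24) whose 95% interval ran from -0.32 to 0.79. On this probe the interval corresponds to a blast level between 0.800 and 1.73 times the sham level. The difference was between 0.12 (without XH1) and 0.40 (without C1) when single rats were left out, 0.16 within row 1, 0.40 within row 2 and 0.26 with the row as a block. The second Il1a probe, with 1 spot per array, was also well above background in all 8 rats and gave a log2 difference of 0.03 (95% interval -1.37 to 1.44). The difference on this second probe turned with the row, at -0.47 within row 1 and 0.56 within row 2 for the same probe. On it XH3 was the highest rat, at 8.06, and M3 the lowest, at 5.47.

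Il1b encodes interleukin-1 beta, the secreted form made mainly by activated myeloid cells. Its 10 spots were not well above background in any rat, with log2 intensities from 2.21 (XH1) to 3.05 (M2), so no fold is given.

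Il1rn encodes the receptor antagonist, which keratinocytes also make in a form kept inside the cell. Its log2 intensity was 14.49, 13.29 and 13.66 in C1, C2 and C3, and 13.23, 12.65, 13.01, 14.12 and 13.78 in M2, M3, H1, XH1 and XH3. The rats at 145 and 175 kPa lay below every sham rat, while both rats at 200 kPa lay within the sham range. The means were 13.81 ± 0.61 (SD, n = 3) and 13.36 ± 0.59 (SD, n = 5), a log2 difference of -0.46 (standard error 0.40, 95% interval -1.40 to 0.48). It was -0.77 within row 1, -0.14 within row 2 and -0.50 with the row as a block, and between -0.72 (without C2) and -0.12 (without C1) with single rats left out.

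Tnf encodes tumour necrosis factor, which activates endothelium and NF-kB in most cell types. Its log2 intensity was 4.21, 6.12 and 5.82 in C1, C2 and C3, and 5.99, 4.46, 5.81, 5.12 and 4.69 in M2, M3, H1, XH1 and XH3. All 5 blast rats lay inside the sham range, whose lowest rat was C1. The means were 5.38 ± 1.02 (SD, n = 3) and 5.21 ± 0.68 (SD, n = 5), a log2 difference of -0.17 (standard error 0.54, 95% interval -1.43 to 1.09). Its direction depended on single rats and on the row of the slide. The difference was 0.20 without C2, 0.05 without C3, 0.02 without M3 and -0.75 without C1, and it was 0.74 within row 1, -1.06 within row 2 and -0.03 with the row as a block.

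Il6 encodes interleukin-6, the inducible cytokine of the acute phase response. It was not well above background in any rat, with 10 spots per array and log2 intensities between 2.20 (C3) and 2.30 (M3). All 8 rats thus lay close together at the lower end of the scale, and no fold is given.

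Among the chemokines, Ccl2 encodes the main attractant of monocytes. On the log2 scale its intensity was 7.27, 5.26 and 7.21 in C1, C2 and C3, and 7.16, 4.04, 7.92, 7.55 and 7.20 in M2, M3, H1, XH1 and XH3. In each group 1 rat, C2 or M3, lay well below the others, M3 was the rat in which the probe was not well above background, and H1 and XH1 lay above every sham rat. The means were 6.58 ± 1.14 (SD, n = 3) and 6.77 ± 1.56 (SD, n = 5), a log2 difference of 0.19 (standard error 0.95, 95% interval -2.02 to 2.41). Without M3 the difference was 0.88, while without C2 it was -0.47 and without H1 it was -0.09. It was 1.28 within row 1, -0.95 within row 2 and 0.32 with the row as a block.

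Cxcl1 encodes a neutrophil attractant that keratinocytes release on contact with interleukin-1. The probe's log2 intensity was 3.39, 2.81 and 2.40 in C1, C2 and C3, and 3.15, 2.20, 2.42, 5.24 and 4.30 in M2, M3, H1, XH1 and XH3. The 2 rats at 200 kPa were the highest of the 8, and XH1 was the rat in which the probe was well above background. Since 7 of the 8 values are not above background, no difference is given.

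Ccl20 encodes the attractant of immature dendritic cells and of T cells that carry the receptor Ccr6. On the log2 scale it lay at 7.54, 4.28 and 3.42 in C1, C2 and C3, and 3.83, 2.23, 3.13, 5.08 and 4.18 in M2, M3, H1, XH1 and XH3. C1 stood above all other rats, XH1 came next, and these were the 2 rats in which the probe was well above background. Since 6 of the 8 values are not above background, no difference is given. On the second Ccl20 probe C1 was again the highest, at 6.79, and the only rat in which that probe was well above background.

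Ptgs2 encodes cyclooxygenase-2, the inducible enzyme that starts prostaglandin synthesis from arachidonic acid. It was not well above background in any rat, with log2 intensities from 2.93 (C1) to 4.65 (C2), so no fold is given.

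Spots for the same probe also differed within an array. Among 10 spots the median SD was 0.11 for Il1a, 0.13 for Ccl2 and 0.35 for Cxcl1 on the log2 scale. Among 2 spots it was 0.02 for Il18, 0.03 for Il1rn, 0.21 for Ccl20 and 0.45 for Tnf. The highest SD of any array was 0.75 for Tnf and 0.68 for Cxcl1.

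**Figure D2:**
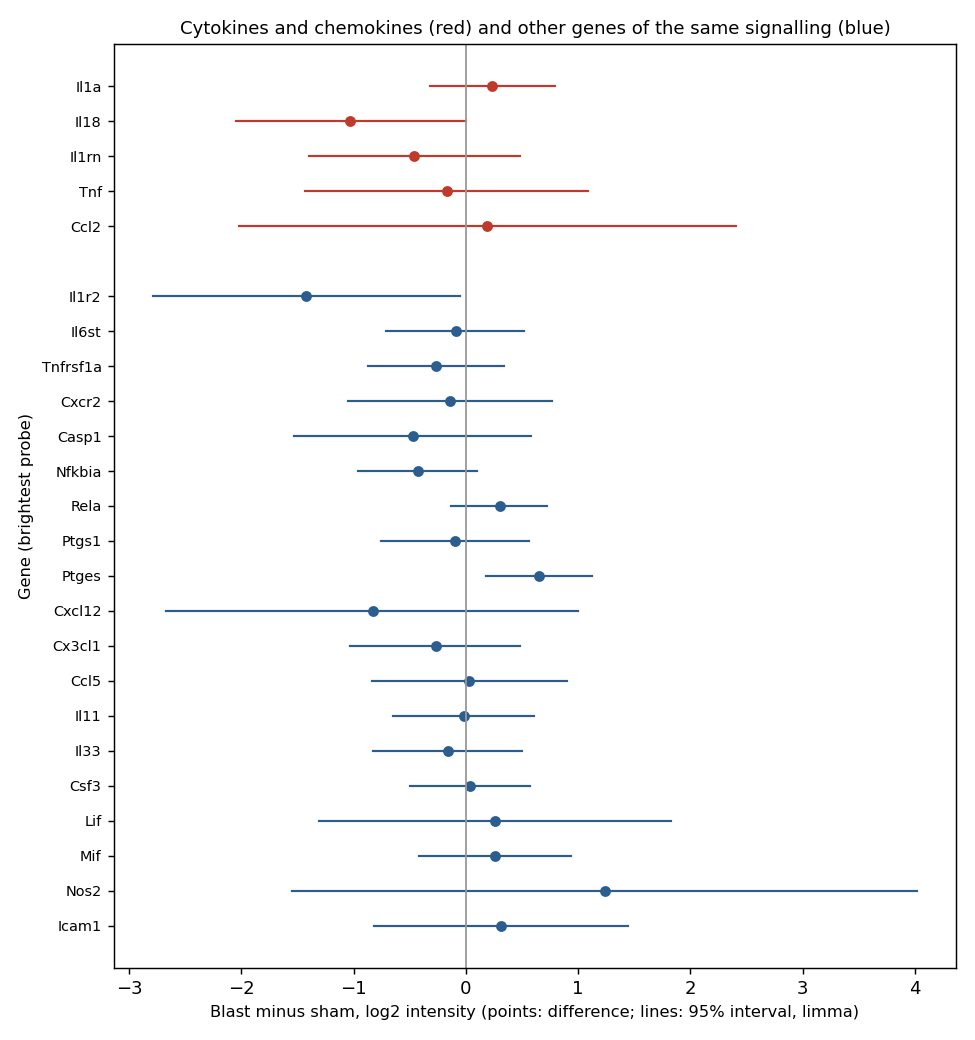
Blast minus sham log2 difference (horizontal axis) of the 5 cytokine and chemokine genes well above background in at least 7 of the 8 rats (red) and of the 19 other genes of the same signalling well above background in all 8 rats (blue), 5 blast against 3 sham rats. Points are the limma differences and lines their 95% intervals, and the intervals of Il18, Il1r2 and Ptges are the ones that do not reach past 0.

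A second question was whether levels moved with pressure among the 5 blast rats, fitted with limma as a straight line per 50 kPa. Of the 4 genes well above background in all rats, 3 had a slope upwards (Il1a, Il18 and Il1rn) and 1 downwards (Tnf), and with the sham rats added at 0 kPa 1 had a slope upwards (Il1a) and 3 downwards. Over the 30354 probes fitted to the blast rats the median slope was 0.03 log2 units per 50 kPa. At an adjusted p under 0.05 there were 0 of the 10 genes, as there were 0% of all probes, and the lowest adjusted p among the 10 was 0.9999. At an unadjusted p under 0.05, 1 gene had an upward slope (Il1rn) and 0 a downward one, beside 1.67% of all probes rising and 1.18% falling.

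The slope of Il1rn was 0.90 log2 units per 50 kPa (standard error 0.31), and its unadjusted call was lost with scaling to the 75th percentile, with a limit of 8, with the sham rats added and without M3, XH1 or XH3. Apart from the fit with sham rats, the slope lay between 0.69 (without XH1) and 1.23 (without M2). Its rats at 145 kPa had 13.23 and 12.65 and those at 200 kPa 14.12 and 13.78. The slope of Ccl2, which was well above background in 4 of the 5 blast rats, was 1.66 (standard error 1.12), 0.11 without M3 and 2.78 without M2. Cxcl1 and Ccl20 were well above background in XH1 alone among the blast rats, so no slope is given for them here. The slope of Ccl20 appears only where the dependence on the processing is described. The slopes of Il1a, Il18 and Tnf were 0.38, 0.27 and -0.27, with standard errors of 0.29, 0.60 and 0.59. Without M3, the slope of Il18 was -0.18, that of Tnf -1.04 and that of Il1a 0.12, and without M2 that of Il1a was 0.70 and that of Tnf 0.27. With the sham rats added at 0 kPa, the slopes were -0.08 for Il1rn, -0.27 for Il18, 0.08 for Il1a and 0.14 for Ccl2. XH1 and XH3 both lay in row 2 of the slide and H1 and M2 in row 1, and a slope within a row was not fitted.

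Of the 4 genes well above background in all rats, M3 was the lowest rat in 3 (Il1a, Il18 and Il1rn), beside 29.8% of the 17468 probes so detected, and C1 was the lowest for Tnf. C1 was the highest for Il1rn and Ccl20, XH1 for Il1a and Cxcl1, C2 for Il18 and Tnf, and H1 for Ccl2. Among the 6 pairs of the 4 genes, the highest Pearson correlations over the 8 rats were those of Il18 with Tnf (r = 0.65, Spearman 0.55, and r = 0.39 without the 2 rats farthest from the median of Il18) and of Il1a with Il1rn (r = 0.63, Spearman 0.57, and r = 0.30 without 2 rats). All values of a rat come from 1 array and share its normalization, and a row of the slide holds too few rats for a correlation within it.

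Other genes of the same signalling were taken from a list of 45 genes, of which 44 had a probe, the brighter one where there were 2. The array names probes by accession, the symbols of this list and of the cell markers were paired with accessions from general knowledge, and 0 of them could be checked against the gene table used here, which lists Rattus rattus. Of the 19 genes well above background in every rat, 8 were higher and 11 lower after blast. Of all 44, 0 had an adjusted limma p under 0.05, and at an unadjusted p under 0.05 there were 1 higher (Ptges) and 1 lower (Il1r2), beside the same 1.18% and 1.62% of all probes. All blast rats lay above all sham rats in 1 of the 44 and below them in 0, beside the same 0.960% and 1.04% of probes.

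Among the 12 receptor genes, 4 were well above background in all rats. Il1r2 (NM_053953), the decoy receptor that binds interleukin-1 without signalling, had log2 intensities of 9.48, 9.04 and 7.62 in C1, C2 and C3, and 6.53, 7.37, 8.45, 6.46 and 7.67 in M2, M3, H1, XH1 and XH3. M2, M3 and XH1 lay below every sham rat, and H1 and XH3 within the sham range. The log2 difference was -1.42 (standard error 0.59, 95% interval -2.79 to -0.05, two-sided exact permutation p = 0.107), with a limma p adjusted over all probes of 0.9999. It was -1.77 within row 1, -0.45 within row 2 and -1.21 with the row as a block, where the unadjusted limma p rose from 0.0440 to 0.0742 and the call was lost, and between -1.97 (without C3) and -1.03 (without C1) with single rats left out. The other receptors in every rat were Il6st, the shared signalling chain of the interleukin-6 family, with a difference of -0.09 (95% interval -0.71 to 0.52), Tnfrsf1a, the main receptor of tumour necrosis factor, with -0.27 (95% interval -0.87 to 0.34), and Cxcr2, the receptor of Cxcl1, with -0.14.

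For prostaglandins, both listed genes were well above background in every rat, unlike Ptgs2. Ptges (NM_021583), the inducible synthase that makes prostaglandin E from the product of the cyclooxygenases, had log2 intensities of 6.50, 7.01 and 6.97 in C1, C2 and C3, and 7.02, 7.49, 7.51, 7.73 and 7.64 in M2, M3, H1, XH1 and XH3. All 5 blast rats lay above every sham rat, M2 only just. The means were 6.83 ± 0.29 (SD, n = 3) and 7.48 ± 0.28 (SD, n = 5), a log2 difference of 0.65 (standard error 0.20, 95% interval 0.18 to 1.12), or 1.57-fold. The two-sided exact permutation p was 0.0179, the smallest that 3 against 5 rats allow, and the limma p adjusted over all probes was 0.9999. The difference was 0.51 within row 1, 0.65 within row 2, 0.57 with the row as a block and 0.49 without C1, where the unadjusted limma p rose from 0.0139 to 0.0572 and the call was lost. Normexp background correction with an offset gave a difference of 0.42, and the Ptges probe had 1 spot per array. Ptgs1, the constitutive cyclooxygenase, differed by -0.10 (95% interval -0.76 to 0.56).

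Of the 4 genes of cytokine processing and NF-kB, Casp1, Nfkbia and Rela were well above background in all rats and the inflammasome sensor Nlrp3 in none. Nfkbia, the inhibitor that NF-kB itself induces, differed by -0.43 (95% interval -0.96 to 0.10), Rela, a subunit of NF-kB, by 0.30 (95% interval -0.13 to 0.72, and -0.46 on a second probe that was well above background in 3 rats) and Casp1, which cleaves interleukin-18, by -0.47 (95% interval -1.53 to 0.58). Of the 9 other chemokines, Cxcl12, Cx3cl1 and Ccl5 were above background in every rat, with differences of -0.83, -0.27 and 0.03. Of the 13 other cytokines with a probe, 5 were well above background in all rats. Among these were Mif, Il11 and Csf3, with differences of 0.26, -0.02 and 0.04. Of the 4 induced effectors, Icam1 and Nos2 were above background in every rat and the endothelial adhesion genes Vcam1 and Sele in none. Nos2, the inducible nitric oxide synthase, was at 11.07 in M3 and 8.11 in H1, against 5.67 to 6.99 in the other 6 rats, and its difference of 1.24 had a 95% interval of -1.55 to 4.02.

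For each of the 4 genes detected in every rat, the pathway gene most like it among the 19 detected in every rat was found by Pearson correlation over the 8 rats. The highest of 19 correlations over 8 rats tends to be large by selection alone, so the values only describe these rats. Il18 was most like Cx3cl1 (r = 0.69, Spearman 0.69, and r = 0.79 without the 2 rats farthest from its median). Tnf was also most like Cx3cl1 (r = 0.52, Spearman 0.19, and r = 0.72 without 2 rats). Il1a was most like Tnfrsf1a (r = 0.54, Spearman 0.60, and r = 0.39 without 2 rats). Il1rn was most like Tnfrsf1a as well (r = 0.66, Spearman 0.31), but this rested on 2 rats, since without them r was -0.60.

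Markers of cell types stood beside these results. All 6 keratinocyte markers were well above background in every rat, among them Krt14, with a difference of -0.34, -0.54 within row 1 and 0.11 within row 2. Over all rats the 6 were lower after blast, 0 at an unadjusted p under 0.05, but within row 2 of the slide 5 of the 6 were higher (all but Krt15). Their summed intensity was 572665, 400022 and 263550 in C1, C2 and C3, and 265949, 296121, 494047, 313517 and 225562 in M2, M3, H1, XH1 and XH3. Krt14, the brightest, weighs most in this sum. Of the 7 leukocyte markers, the defining genes Ptprc and Itgam were not well above background in any rat, and 3 were so in every rat. These 3, Aif1, Csf1r and Lyz2, differed by 0.30, 0.18 and 0.86, and by -0.12, 0.02 and -1.32 within row 2. Cd68 and Cd74, each well above background in 7 rats, differed by 0.02 and 0.40, and by 0.02 and -0.74 within row 2. A second probe gave 0.23 for Aif1 and -0.06 for Csf1r. At an unadjusted limma p under 0.05 there were 0 of the 7 in either direction. The summed intensity of the 7 was 659, 1008 and 1074 in C1, C2 and C3, and 945, 863, 1326, 780 and 992 in M2, M3, H1, XH1 and XH3. The sum of M3 lacks Cd68, the brightest of the 7, whose spots were marked as outliers.

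The 2 genes taken as neutrophil markers, S100a8 and S100a9, which keratinocytes can also make, summed to 2983 in C1 and to between 231 (H1) and 573 (M2) in the other 7 rats. C1 was also the rat with the highest Ccl20 and Il1rn. The red cell marker Hbb was at 1180, 15991 and 3188 in C1, C2 and C3, and at 175962, 10355, 42234, 10166 and 22141 in M2, M3, H1, XH1 and XH3, a log2 difference of 2.84 (95% interval 0.11 to 5.57, limma adjusted p = 0.9999). A second Hbb probe differed by 3.46 (95% interval 0.77 to 6.15). Among fibroblast markers, Col1a2 was the brightest and weighs most in their sum. The 4 fibroblast markers summed to 6747, 6412 and 4884 in C1, C2 and C3, and to 13504, 8368, 10166, 3579 and 3748 in M2, M3, H1, XH1 and XH3. Of these, Col1a1, Col1a2 and Vim were well above background in every rat, with log2 differences of 0.48, 0.12 and -0.01. Col3a1, well above background in 4 of the 8 rats (C1, M2, H1 and XH3), had a measured log2 difference of 1.76 (95% interval 0.62 to 2.89, limma adjusted p = 0.9999) that rests in part on values below that mark. Of all 23 marker genes, 2 were higher (Hbb and Col3a1) and 0 lower at an unadjusted limma p under 0.05, beside 1.18% and 1.62% of all probes. All blast rats lay above all sham rats in 1 of the 23, Col3a1, beside 0.960% of probes. The endothelial marker Pecam1 was well above background in M2 and XH3 alone, so no fold is given, and Kdr, well above background in the 7 rats with a value, had a difference of 0.18, and the smooth muscle marker Acta2 was so in every rat, with a difference of 0.14. The part of cell makeup in the levels of the cytokine and chemokine genes was not tested.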

How the data were processed

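Labelled RNA from the hair follicles of 8 rats had been hybridized to 1 array each. The authors deposited the intensity of each spot after background subtraction by Feature Extraction (version 10.7.1.1 per the file headers), and a table of quantile normalized log2 values, which correlated with log2 of the intensities at 0.9986 or more. Control and outlier spots were dropped, spots of a probe averaged as log2, intensities quantile normalized, a lower limit of 3 set, and log2 taken. A probe was well above background in a rat when at least 50% of its remaining spots carried that flag. Groups were fitted with limma 3.58.1 in R 4.3.3 (lmFit, eBayes, Benjamini-Hochberg over all probes), and single genes with a two-sided exact permutation test. The group fit and the permutation test were also run on simulated data. These were independent normal values per probe without array or row effects, so the run does not cover such effects. Summed marker intensities are normalized and linear, so the brightest genes weigh most in them. Groups come from the labels, which give the species as Rattus rattus, while the methods give Rattus norvegicus. The members and lists were chosen with earlier results of these data known. All members are named, and from other lists genes at an unadjusted p under 0.05 and otherwise at most the 3 brightest detected of a subgroup. Nos2, Nlrp3, Vcam1, Sele and the marker genes were named after their values were seen. Alternatives covered scaling, limit, background, outlier spots, filter, test, weights, blocks, deposited log2 values and each rat left out.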

Additional observations from a re-analysis of the deposited data

Results flagged for a closer look

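Among the 5 blast rats, the gap between the highest or lowest rat and its neighbour was set against the whole range for the 10 cytokine and chemokine genes, Il1r2 and Ptges, 12 genes in all. The ratio passed Dixon's 95% critical value for 5 samples in 3 of the 12, beside 13.7% of the 30236 probes with a value in all blast rats, where chance would pass it in about 1 of 20 groups. Of the 9 genes with a signal in at least 1 rat it passed in 1, beside 9.16% of the 23587 probes with such a signal. For Ccl2, the 1 with a signal, the ratio was 0.805, with M3 at a log2 intensity of 4.04 and the other blast rats between 7.16 and 7.92. For Il1b it was 0.835, with M2 at 3.05 against 2.21 to 2.35, and for Il6 it was 0.719, with M3 at 2.30 against 2.21 to 2.23. Neither Il1b nor Il6 was well above background in any rat, so their ratios describe values without a signal.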

How the results depend on the processing

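Adjusted over all probes, 0 of the 10 cytokine and chemokine genes and 0 of the 44 pathway genes passed under any of the 18 alternatives to the blast comparison. Over all probes the adjusted count was 0 with every rat kept, and from 0 to 3 with single rats left out, namely 2 when C1 was dropped and 3 when C3 was. The unadjusted count over all probes, 850, was 441 when dim probes were filtered out, so that fewer were tested, 1671 with array quality weights, and from 657 (without C1) to 1649 (without H1) with single rats left out.

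The unadjusted count of 1 among the 10 genes, Il18, was 0 with a limit of 8, with outlier spots kept, with the deposited log2 values, with the methods' analysis of variance and with slide row as a block. It was 2 (Il1a and Il18) with array quality weights, and from 0 (without C2, C3, M2, M3, XH1 or XH3) to 1 (without C1 or H1) with single rats left out. The unadjusted pathway count of 2 was 1 with a limit of 8, with the analysis of variance and with array quality weights, Ptges in each case, 3 with slide row as a block (Ptges, Il1r1 and Il33, with Il1r2 lost), 3 with scaling to the 75th percentile (Cxcl2 added, not well above background in any rat), and from 0 (without C1) to 3 with single rats left out, where Il1r2 stayed under 0.05 without C3 or H1 only. The difference of Tnf lay between -0.75 (without C1) and 0.20 (without C2), with 0.05 without C3 and 0.02 without M3, and that of Ccl2 between -0.47 (without C2) and 0.88 (without M3), with -0.09 without H1. Array quality weights moved Il1rn from -0.46 to -0.13, Il1a from 0.23 to 0.43, Tnf from -0.17 to -0.43 and Ccl2 from 0.19 to 0.32. Normexp with an offset gave 0.42 for Ptges (0.65 before).

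Taking the number in the title for a replicate block, 0 of the 10 genes and 2 of the 44 (Ptges and Csf1, with Il1r2 lost) had an unadjusted p under 0.05, Tnf was at -0.03, and the block changed no adjusted call. The 5 pairs of rats with the same number had correlations from -0.30 to 0.32. Of the 8 rats, 4 correlated best with their own number. So few rats cannot settle pairing.

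For the slope with pressure, the adjusted count was 0 under all 9 alternatives. The unadjusted count of 1 among the 10 genes was 2 with scaling to the 75th percentile (Cxcl1 and Ccl20, with Il1rn lost), 0 with a limit of 8, 0 with sham rats added at 0 kPa, and from 0 (without XH1 or XH3) to 4 (without M2) with single rats left out, beside 411 (without XH1) to 4795 (without M2) over all probes in place of 865. Without M3 Il1rn was lost and 2 genes with downward slopes, Tnf and Il1b (no signal), were called instead. Leaving out M3 gave 1302 probes, and leaving out XH3 gave 508. With sham rats added, slopes turned from 0.90 to -0.08 (Il1rn) and from 0.27 to -0.27 (Il18). That of Ccl20 went from 1.43 to -0.31, but it describes values mostly without a signal. With single rats left out, the slope of Il18 ran from -0.18 (without M3) to 0.58 (without XH3) and that of Tnf from -1.04 (without M3) to 0.27 (without M2), with 0.03 without XH3. Where a value moved, the cause was not tested. Signal over background limits Cxcl1, Ccl20, Il1b, Il6 and Ptgs2, which were mostly or wholly not well above background.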
